A study of Mus musculus with 2 samples.

Results

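The crypt base stem cell markers are 10 genes whose transcripts mark the dividing cells at the bottom of intestinal crypts, and they were picked by symbol from a table of 19294 genes. All 10 were found. The table holds read counts from 1 control culture and 1 culture treated with dextran sulfate sodium (DSS), a sulfated polysaccharide used to injure intestinal epithelium. Both were mouse intestinal organoids (mIOs), which are epithelial cultures grown from crypts of the jejunum, of the genotype Lgr5-EGFP-IRES-creERT2, and both were sampled on day 4. The medium of both cultures supplied EGF, Noggin and R-spondin. The DSS concentration behind the sequenced culture is not given in the sources used here, nor is the age of the mice. The allele places EGFP and a tamoxifen-inducible Cre at the Lgr5 locus, so its own transcript lies under the control of that gene. How reads from the modified allele were counted is not stated, and EGFP was not analysed here.

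Stem cells at the crypt base, also called crypt base columnar cells, renew the epithelium and depend on WNT signals from their neighbours, many of which are Paneth cells. R-spondin, which binds receptors of the LGR family, raises this signal by keeping WNT receptors on the cell surface. Daughter cells that leave the base divide for a time and then become absorptive or secretory cells. Some of the 10 genes, such as Lgr5 and Olfm4, mark the columnar cells narrowly, while Bmi1 and Lrig1 have also been used to mark slowly dividing reserve cells and are expressed more broadly.

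Total counts were 65493032 for control and 59746968 for DSS. Counts were scaled with TMM factors and are given as CPM, the count of a gene relative to the scaled library total. The log2 ratio sets DSS over control, and its 95% interval covers counting error only. No condition was replicated in the sequencing, so no test between conditions was made and no difference has a replicate check within it. By RT-PCR, the paper reports lower Lgr5 and Lyz with DSS and similar levels of Vil1, Muc2 and Chga. In the libraries the log2 ratios were -3.78 for Lgr5, -1.06 for Lyz1, 4.98 for Muc2 and 2.60 for Chga. Vil1 was not analysed here. In these bulk libraries, fewer cells of a type and less RNA per cell cannot be told apart.

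All 10 markers had a lower scaled level in the DSS library than in the control library, where 52% of the 17235 genes that reached 10 counts in either library were lower. At a log2 ratio of -2 or less stood 6 of 10 markers, beside 6.54% of those genes. At -1 or less were 8 of 10, beside 20.2%. The whole interval lay below 0 for all 10 markers, beside 42.7%. With upper quartile factors this held for 9 of 10, as Bmi1 was then at -0.05 with an interval from -0.16 to 0.06. The median log2 ratio of the markers was -3.01, and that of the 17235 genes was -0.06. Together the 10 genes took 0.142% of all control counts and 0.0313% of all DSS counts, which was 1304 and 342 CPM. The markers did not move by a common amount, since their ratios ran from -9.59 for Olfm4 to -0.14 for Bmi1. Next to the line of -2 lay Rgmb at -2.24 on the inner side and Lrig1 at -1.97 on the outer side, and the interval of Lrig1, from -2.02 to -1.92, included the line. With total counts as library size Lrig1 was at -2.23, and 7 of 10 markers were then at -2 or less.

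**Figure D1:**
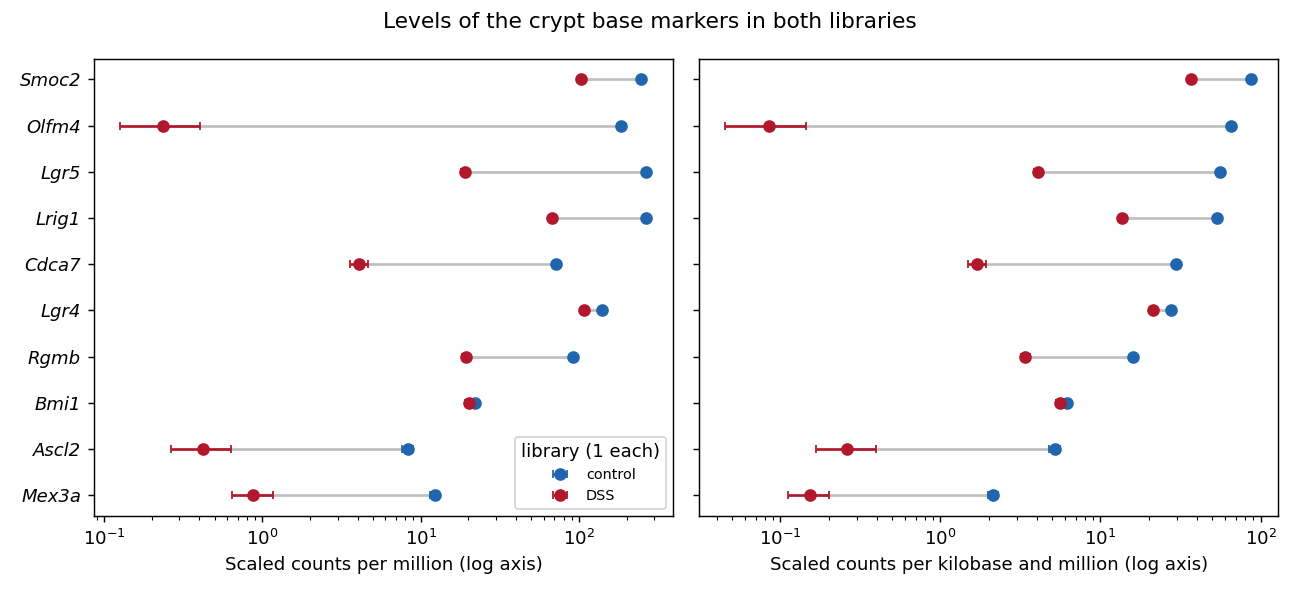
Level of each marker in the control (blue) and DSS (red) library, as CPM (left) and as CPM per kilobase of transcript (right), both on log axes, with 1 library per condition and bars for the exact Poisson interval of the count. For Olfm4 the points are at 183 CPM (control) and 0.238 CPM (DSS), whereas the points of Bmi1 and Lgr4 lie side by side.

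Among the R-spondin receptors, Lgr5 and Lgr4 differed. Lgr5 encodes the receptor that gives the columnar cells their best known marker. It had 18849 counts in the control library and 1048 in the DSS library, or 263 and 19.2 CPM. Its level was 13.7-fold lower in the DSS library, with an interval from 12.9 to 14.6. Lgr4, which is expressed along the whole crypt and in other tissues, had 10010 and 5852 counts, or 139.9 and 107.0 CPM. This was 1.31-fold lower, with an interval from 1.27 to 1.35. The order of the receptors differed between the libraries. For each Lgr4 count there were 1.88 Lgr5 counts in the control library and 0.179 in the DSS library, a log2 difference of -3.39 with an interval from -3.50 to -3.29 that does not depend on the scaling of the libraries. The third receptor of the family, Lgr6, is not among the listed genes, and the table lists a gene only where both libraries have at least 1 count.

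The markers that encode secreted proteins were Olfm4 and Smoc2, and their values were far apart. Olfm4 encodes olfactomedin 4, a glycoprotein whose transcript is dense in the columnar cells of the small intestine. It had 13109 counts in the control library and 13 in the DSS library, or 183 and 0.238 CPM, which left 0.130% of its control level. It was 770.3-fold lower in the DSS library, and the interval reached from 450.3 to 1447. Its log2 ratio ranked 1 of 17235 from the lowest. A gene without a count in 1 of the libraries is not listed and has no place in this ranking. Smoc2, a matricellular protein that binds calcium, had 17661 and 5670 counts, or 247 and 103.7 CPM. It kept 42.0% of its control level, and its log2 ratio was -1.25 (interval -1.29 to -1.21). In the control library, 0.742 Olfm4 counts stood beside each Smoc2 count, and 0.00229 did so in the DSS library. Among the 10 markers, only Lgr4 and Bmi1 differed less between the libraries than Smoc2.

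Lrig1 and Rgmb encode proteins of the cell membrane, and both lay between these extremes. LRIG1 restrains ERBB receptors such as the EGF receptor. Lrig1 had 18923 and 3682 counts, or 264 and 67.3 CPM, which was 3.93-fold lower in the DSS library with an interval from 3.79 to 4.07. RGMB is a co-receptor for bone morphogenetic proteins. Rgmb had 6546 and 1058 counts, or 91.5 and 19.4 CPM, and was 4.73-fold lower with an interval from 4.43 to 5.05. The log2 ratio of Lrig1 exceeded that of Rgmb by 0.27, with an interval from 0.16 to 0.38.

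Of the nuclear regulators, Ascl2 and Cdca7 were much lower in the DSS library and Bmi1 was close to its control level. ASCL2 is a basic helix-loop-helix transcription factor that maintains the stem cell program downstream of WNT. Ascl2 had 596 counts in the control library and 23 in the DSS library, or 8.33 and 0.421 CPM, which gave a log2 ratio of -4.31 (interval -4.98 to -3.71). CDCA7 activates the chromatin remodeler HELLS and is abundant in dividing cells. Cdca7 had 5149 and 224 counts, or 71.9 and 4.10 CPM, and its log2 ratio was -4.13 (interval -4.33 to -3.94). BMI1 is a subunit of polycomb repressive complex 1. Bmi1 had 1591 and 1104 counts, or 22.2 and 20.2 CPM, so that 90.8% of the control level was left. Its log2 ratio was -0.14 (interval -0.25 to -0.03), which lay -0.08 from the median of all genes tested and ranked 8053 of 17235 from the lowest.

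Mex3a, which encodes an RNA-binding protein found in a slowly cycling subset of the Lgr5 cells, had 882 and 48 counts, or 12.3 and 0.878 CPM. Its log2 ratio was -3.81, with an interval from -4.26 to -3.39. Mex3a and Lgr5 kept nearly the same proportion, with 21.4 Lgr5 counts for each Mex3a count in the control library and 21.8 in the DSS library.

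**Figure D2:**
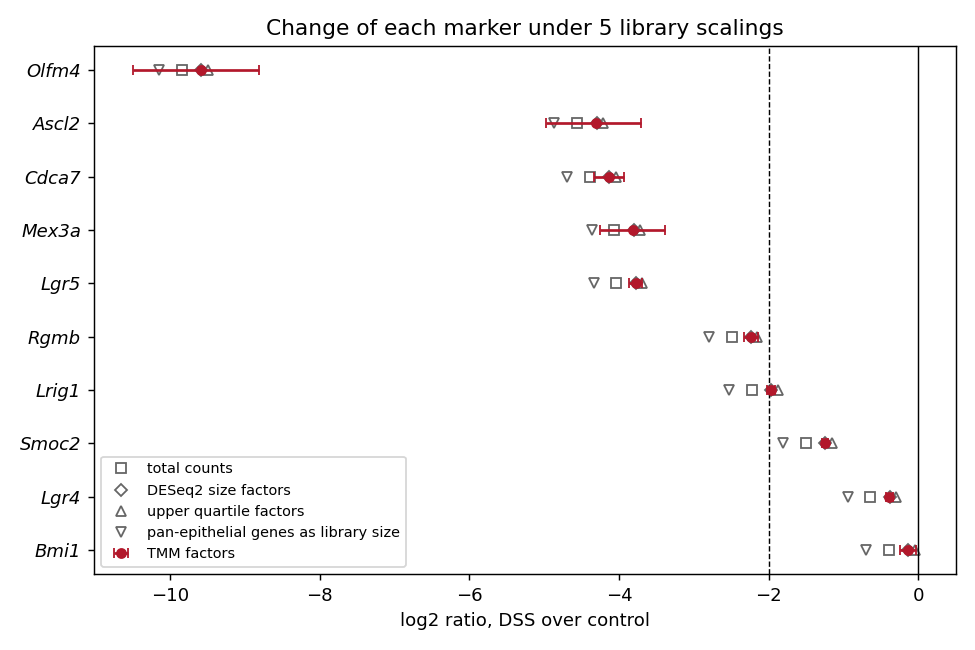
Log2 ratio of each marker, DSS over control, on the horizontal axis, with TMM factors (red, bars for the 95% counting interval) and with 4 other library scalings (open symbols). All points lie below 0 (solid line), the markers from Rgmb upward stay left of -2 (dashed line) in each scaling, and Lrig1 crosses that line with the scaling.

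Comparing the markers with each other removes the library factor, and 45 pairs were formed. The interval of the difference held 0 for 5 pairs, which were Lgr5 with Ascl2, Lgr5 with Mex3a, Ascl2 with Mex3a, Ascl2 with Cdca7, and Mex3a with Cdca7. For Lgr5 and Ascl2 the log2 difference was 0.53, from -0.08 to 1.20, and for Ascl2 and Cdca7 it was -0.17, from -0.87 to 0.46. These 4 genes therefore formed a group near -4, although Lgr5 and Cdca7, at a difference of 0.35 from 0.14 to 0.57, were separated beyond counting error. Ascl2 and Mex3a have few DSS counts, so their intervals leave room for differences of the size seen between Lgr5 and Cdca7. Olfm4 lay below each of these genes, and its log2 difference from the closest of them, Ascl2, was -5.28 (from -6.39 to -4.23). Epcam, the gene of an adhesion molecule present on epithelial cells in general, served as a second yardstick and had 67379 and 52502 counts. Per 1000 Epcam counts there were 280 Lgr5 counts in the control library and 20.0 in the DSS library, 262 and 108.0 of Smoc2, and 23.6 and 21.0 of Bmi1.

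Levels of different genes can be compared per length. On the scale of CPM per kilobase, with the longest coding transcript of the mouse GENCODE vM21 annotation as length, Smoc2 was the most abundant marker in the control library at 87.1, followed by Olfm4 at 65.4, Lgr5 at 55.9 and Lrig1 at 53.4. Cdca7 at 29.7, Lgr4 at 27.6 and Rgmb at 16.1 came next. The lowest levels were those of Bmi1 at 6.19, Ascl2 at 5.19 and Mex3a at 2.13. No neighbours in this order had overlapping counting intervals. In the DSS library the order began with Smoc2 at 36.6, Lgr4 at 21.2, Lrig1 at 13.6 and Bmi1 at 5.62, ahead of Lgr5 at 4.07. Olfm4 moved from second place to the last at 0.0849, next to Mex3a at 0.152 and Ascl2 at 0.262, and the intervals of these neighbours overlapped. The order depends on the transcript used. With the median length of the annotated coding transcripts Rgmb would stand at 123 in the control library, where several short models pull its length to 742 bases. Lgr5 at 99.3 would then stand ahead of Smoc2 at 87.6 and Olfm4 at 82.5. In the DSS library Bmi1 at 32.7 and Rgmb at 26.1 would pass Lgr4 at 21.3.

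The promoters of the markers with the most and the least different levels are shown because they allow the short motifs near the starts of genes with such unlike ratios to be compared. RefSeq windows on the build GRCm38.p6 were found for 8 of 10 markers, and none was found for Lgr5 and Smoc2. The 250 bases before the start of the lowest pair by ratio, Olfm4 (chr14:80000052-80000301, plus strand) and Ascl2 (chr7:142969265-142969514, minus strand), and of the highest pair, Lgr4 (chr2:109917397-109917646, plus strand) and Bmi1 (chr2:18676768-18677017, plus strand), read as follows, with matches to 5 searched motifs in capitals.
Olfm4: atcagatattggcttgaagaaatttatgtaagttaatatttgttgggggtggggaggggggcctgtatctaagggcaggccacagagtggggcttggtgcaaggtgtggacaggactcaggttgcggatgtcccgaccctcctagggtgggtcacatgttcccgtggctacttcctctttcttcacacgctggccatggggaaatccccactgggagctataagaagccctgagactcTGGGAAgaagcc
Ascl2: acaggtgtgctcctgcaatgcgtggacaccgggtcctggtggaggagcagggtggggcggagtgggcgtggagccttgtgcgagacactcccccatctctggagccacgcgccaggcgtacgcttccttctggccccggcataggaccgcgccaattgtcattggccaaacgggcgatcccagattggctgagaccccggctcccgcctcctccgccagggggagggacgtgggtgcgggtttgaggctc
Lgr4: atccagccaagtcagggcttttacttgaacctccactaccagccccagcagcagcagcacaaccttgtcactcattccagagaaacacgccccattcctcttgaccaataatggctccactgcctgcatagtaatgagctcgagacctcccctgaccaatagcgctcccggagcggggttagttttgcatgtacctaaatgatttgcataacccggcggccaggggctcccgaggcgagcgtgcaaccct
Bmi1: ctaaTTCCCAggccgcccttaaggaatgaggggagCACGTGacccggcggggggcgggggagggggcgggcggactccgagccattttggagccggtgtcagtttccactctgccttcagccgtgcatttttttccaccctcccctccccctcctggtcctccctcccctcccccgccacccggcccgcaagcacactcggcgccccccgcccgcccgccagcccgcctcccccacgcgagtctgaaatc

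The motifs, searched on both strands, were the TCF/LEF core TCAAAG of WNT signaling, the RBPJ core TGGGAA of Notch signaling, the E-box CACGTG bound by MYC, the E-box CAGCTG bound by factors such as ASCL2, and the E2F site GGCGGGAA. No match of one motif overlapped that of another in these windows. Olfm4 held the RBPJ core from 12 to 7 bases before its start, and 21.6% of all 32851 windows in the same table held these letters. Bmi1 held the RBPJ core and the MYC E-box, the latter found in 6.02% of windows, and Cdca7 held the RBPJ core. Mex3a held the E2F site, which 1.86% of windows held, from 93 to 86 bases before its start. The TCF/LEF core, present in 13.8% of windows, and the CAGCTG letters, present in 13.0%, occurred in none of the 10 windows of the markers, of which Rgmb has 3. Windows 1 and 2 of Rgmb overlap, so the 10 are not separate stretches. A match is a description of letters, and elements farther from the start were not searched.

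Most of these genes belong to small families, and 7 of the markers could be compared with relatives. The comparison of a marker with its relative does not depend on the library scaling. Of 22 relatives, 15 reached 10 counts in either library. The marker was lower beyond the counting interval in 9 of 15 comparisons, not separated in 3 and higher in 3. All 3 of the last kind concerned Bmi1. A marker can enter several comparisons, so the 15 are not separate results. The median log2 ratio of all genes tested was -0.06, so a low marker lies below most genes, related or not. The share for unrelated genes was not computed. On the log2 scale, the difference of Lrig1 from Lrig2 was -2.27 (from -2.39 to -2.14) and from Lrig3 it was -2.05 (from -2.13 to -1.96). Lrig3 had 3811 and 3064 counts. Smoc2 differed from Smoc1 by -2.08 (from -2.56 to -1.60), and Smoc1 was rare, at 65 and 88 counts. Mex3a differed by -3.85 from Mex3c, which had 6342 and 4988 counts, and by -1.82 from Mex3d, which had 1091 and 210. Olfm4 differed by -10.23 from Olfm1, at 143 and 170 counts. A further relative, Olfm2, had 15 and 3 counts.

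Cdca7 and Rgmb, both at -2 or less, were not separated from their relatives. Cdca7l had 2519 and 117 counts, and the log2 difference between the pair was -0.09, from -0.43 to 0.25. For Rgmb, the relative Rgma had 41 and 5 counts and a log2 ratio of -2.65, and the difference of 0.41 had a wide interval from -0.94 to 2.11. Bmi1 stood amid its relatives, as it differed by -0.58 from Pcgf3, was not separated from Pcgf1, and lay 0.33, 0.54 and 0.84 above Pcgf5, Pcgf2 and Pcgf6. Relatives such as Lgr6, Olfm3, Ascl3, Ascl5 and Hjv are not listed, and Ascl4 had 4 counts in each library, so no relative of Ascl2 was compared.

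**Figure D3:**
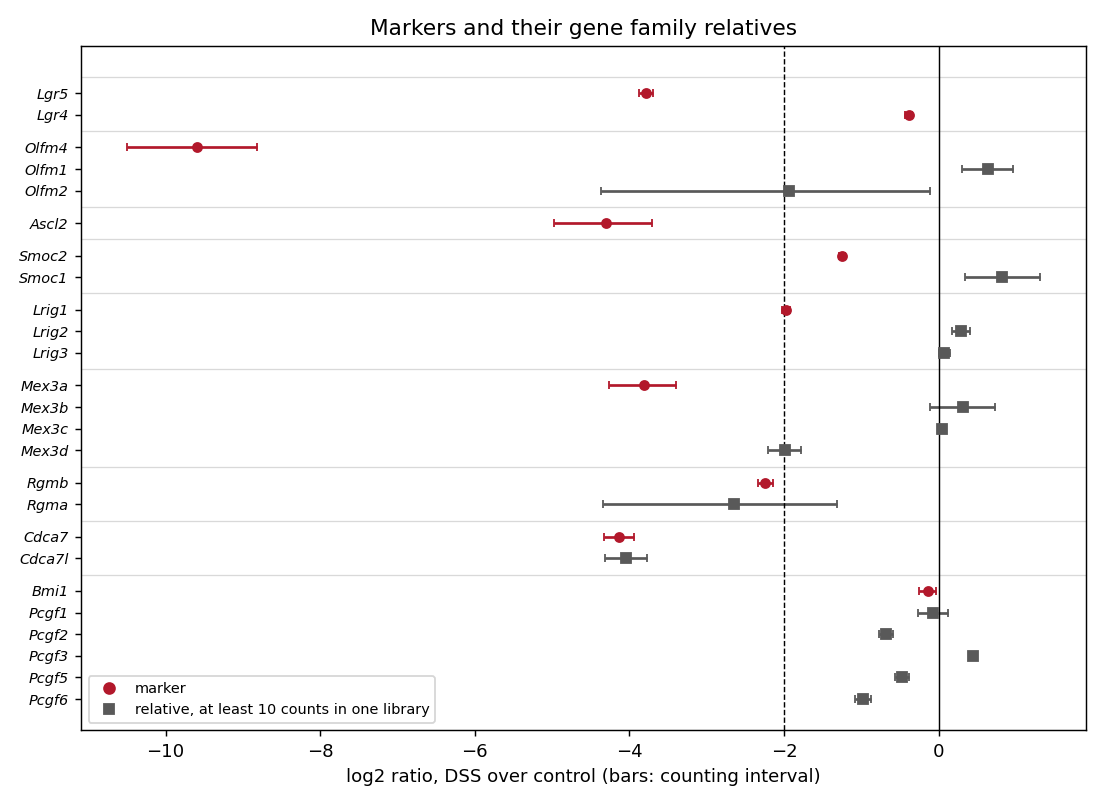
Log2 ratio, DSS over control, with 95% counting intervals, for the markers (red circles) and for their relatives that reached 10 counts in either library (grey squares). Lrig1, Mex3a, Olfm4 and Smoc2 lie left of their relatives, Cdca7 and Cdca7l lie at the same place, and Bmi1 lies within the spread of the Pcgf genes.

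The protein partners of the markers were then set beside them. HELLS, UHRF1 and DNMT1 maintain DNA methylation with CDCA7 in dividing cells, and all 3 genes were at -2 or less, beside 6.54% of all genes tested. Hells had 4455 and 257 counts for a log2 ratio of -3.73, Uhrf1 had 9519 and 402 for -4.18, and Dnmt1 had 10918 and 878 for -3.25. They lay close to Cdca7 at -4.13. For 10 other genes of the complex in which BMI1 works, the median log2 ratio was -0.51. The lowest were Cbx6 at -1.64 and Cbx2 at -1.31, and among those above 0 was Cbx8 at 0.63. RNF2 and RING1 are the catalytic partners of BMI1, and Rnf2 was at -0.63 and Ring1 at -0.69, both below Bmi1. Cdkn2a, a locus that BMI1 represses, is not listed.

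For the R-spondin receptors, the partners on the cell surface had unlike values. Rnf43 and Znrf3 encode the ubiquitin ligases that LGR receptors and R-spondin remove from the membrane, and both are WNT targets. Rnf43 was at -2.23 (9567 and 1554 counts) and Znrf3 at -2.16 (1558 and 267 counts). The WNT receptor genes had other values, with Fzd7 at -0.68, Lrp5 at -0.13, Lrp6 at 0.88 and Fzd5 at 1.13. Rspo4, with 158 and 201 counts, was the only listed R-spondin gene, while Rspo1, Rspo2 and Rspo3 are not listed.

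The ERBB receptors that LRIG1 restrains were higher in the DSS library with TMM factors. Egfr was at 0.41, Erbb2 at 0.93 and Erbb3 at 1.27, whereas Erbb4 is not listed. Egfr turned to -0.14 when the summed counts of 7 epithelial genes served as library size. The 6 listed of 7 receptor genes for bone morphogenetic proteins and RGMB ran from Acvr2b at -0.61 to Acvr2a at 0.89 with a median of 0.18, which became -0.07 with total counts. Bmpr1b is the receptor gene without a listing. For both Lrig1 and Rgmb, the receptor genes thus lay closer to 0 than the marker on the log2 scale.

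Most other genes of the crypt base were also lower in the DSS library. From a list of 21 genes, 19 reached 10 counts in either library, and 9 of 19 were at -2 or less, beside 6.54% of all genes tested. Rnf43 and Znrf3, named above as receptor partners, are among these 9 as well. Their median was -1.97, and 18 of 19 were below 0, beside 52% of all genes tested. The lowest were Axin2, a feedback inhibitor of WNT, at -4.26, the water channel gene Aqp4 at -4.18 and Igfbp4, which binds insulin-like growth factors, at -3.63. At the other end were Prom1 at -0.86, Phlda1 at -0.54 and Vdr, the vitamin D receptor, at 0.40. Vdr turned to -0.15 with the epithelial genes as library size. Fstl1 had 8 and 9 counts, and Slc14a1 is not listed. Hopx and Tert, which have marked reserve cells as Bmi1 has, were at -1.08 (11772 and 4266 counts) and -1.28 (454 and 143 counts). Both were therefore lower than Bmi1 and higher than the group around Lgr5.

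Genes of other cells and of the cell cycle also differed between the libraries, and their part in the marker values was not tested. The list of 12 cycling cell genes had 11 of 12 at -2 or less, beside 6.54% of all genes tested, and a median of -3.78, with Mcm5 at -4.70 as the lowest and Pcna at -0.71 as the highest. Its summed level was 1814 CPM in the control library and 289.7 CPM in the DSS library. All 5 Paneth cell genes were below 0, beside 52% of all genes tested. They kept to a small range, from -1.19 for Mmp7 to -0.88 for Ang4, but this list holds no defensin. The alpha-defensins, antimicrobial peptides made by Paneth cells, were looked up after values were seen. All 18 genes that reached 10 counts were at -2 or less, beside 6.54% of all genes tested. They ran from -5.75 for Defa29 to -2.19 for Defa24. Their median was -3.34, and they can share reads, so they are not 18 separate observations. The values of Lgr5, Ascl2, Cdca7, Mex3a and Rgmb lay within that range, and Olfm4 lay below it. The niche signals that Paneth cells send to stem cells were mixed. Wnt3 was at -0.68 (324 and 154 counts), Egf at -0.88 (65 and 27 counts), Dll4 at 0.61, Tgfa at 0.82 and Dll1 at 1.14. EGF was supplied by the medium.

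Both cultures are labelled as intestinal stem cells, but their libraries also held the transcripts of mature cells. The summed level of 6 enterocyte genes was 1399 CPM in the control library and 18423 CPM in the DSS library, and that of 5 goblet cell genes was 807 and 9210 CPM. All 6 enterocyte genes were above 0, as were all 5 goblet cell and all 5 enteroendocrine genes, with medians of 3.63, 3.77 and 2.60. Of all genes tested, 52% were below 0. All 4 tuft cell genes were also below 0, with a median of -1.52, which was -1.30 with a prior count of 2. Some had few counts, as Dclk1 had 47 and 10. Rgs13 had 12 and 4, and its interval from -3.29 to 0.53 held 0. Among 7 genes shared by epithelial cells, Cdh1, Cldn7, Epcam and Krt18 lay between -0.03 and 0.04 with TMM factors, whereas Cldn3 was at 0.65, Krt8 at 0.84 and Krt19 at 1.15. The summed level of the 7 genes was 5996 CPM in the control and 8822 CPM with DSS. Among genes linked to fetal-like or revival states, Clu was at 0.57, Anxa1 at 1.12, Il1rn at 2.36 and Ly6a at -0.44.

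For cells outside the epithelium few markers are listed, which leaves their level unknown where a gene has no count in 1 of the libraries. Of 6 mesenchymal genes, Col1a1 (29 and 24 counts) and Pdgfra (3 and 7) are listed, with a summed level of 0.447 CPM in the control library and 0.567 CPM in the DSS library. Col1a2, Col3a1, Dcn and Lum are not listed. Among the immune genes Cd68 is listed, at 6.86 and 11.4 CPM, and Ptprc, Cd3e and Adgre1 are not. Of 3 endothelial genes, Pecam1 had 12 and 55 counts, whereas Cdh5 and Kdr are not listed.

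**Figure D4:**
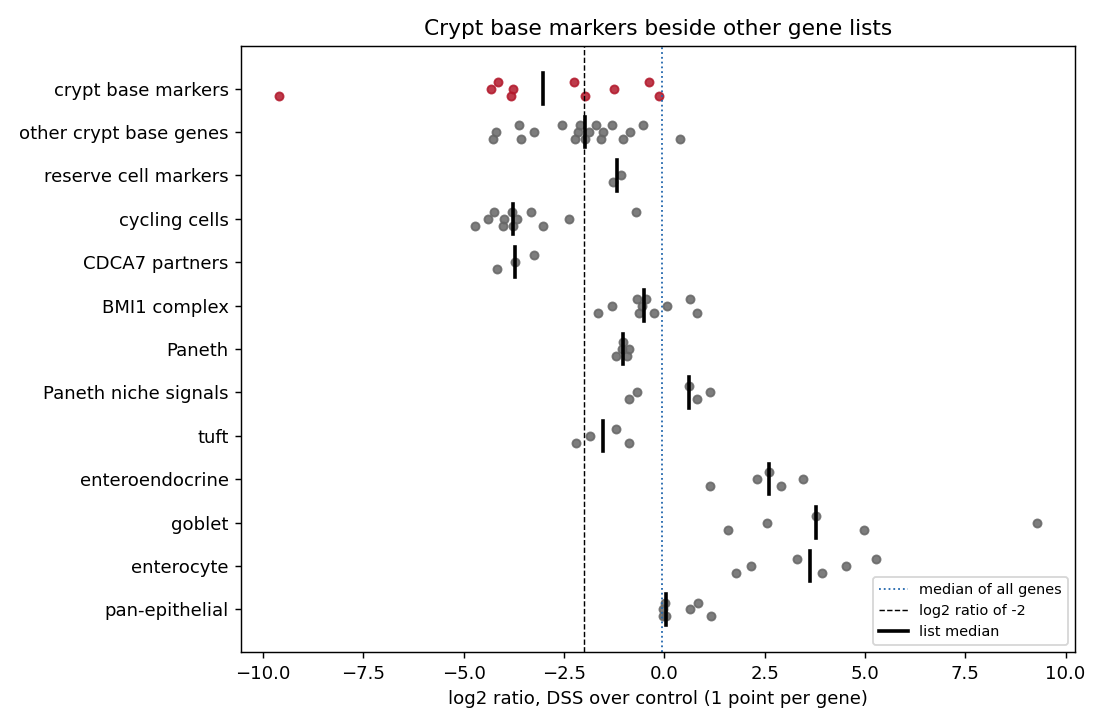
Log2 ratio, DSS over control, of each gene that reached 10 counts in either library (points), by list, with the list median (black bar), the median of all genes tested (dotted line) and the line of -2 (dashed). The crypt base markers spread from -9.59 to -0.14, the cycling cell genes gather around -3.78, and the goblet and enterocyte genes lie above 0.

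For Lgr5, Olfm4 and Bmi1, the genes with the most similar levels in both libraries were sought by the Euclidean distance of log2 CPM over 2 libraries. The nearest to Lgr5 were Fads1 (18636 and 1237 counts, distance 0.24), Defa17 (16253 and 847 counts, distance 0.37) and Hmgb2 (18185 and 1388 counts, distance 0.41). Defa17 is one of the Paneth cell alpha-defensin genes, and its count is uncertain because reads can fall to closely similar copies. Olfm4 had no close neighbour, as the nearest genes were Gm8989 at a distance of 2.78, Gm8979 at 2.96 and Myb at 2.98, the last with 2424 and 43 counts. Bmi1 lay in a dense part of the data, with Lamtor4, Sec22a and Chm at distances of 0.006, 0.007 and 0.018. With 2 libraries such likeness rests on a level and a ratio alone.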

How the data were processed

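Poly(A) RNA of 1 control and 1 DSS-treated organoid culture was sequenced from stranded libraries. The deposited values are read counts without normalization, 1 row per gene with its NCBI identifier and symbol. The submitters' processing notes name HISAT2 and StringTie, while the genome build and the counting settings are not given in the sources used here. The deposited single-sample files hold the same counts for all 19294 genes, although their names refer to FPKM. Only genes with at least 1 count in both libraries are listed, so no count of 0 occurred.

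Depth was 65493032 counts in control and 59746968 in DSS. Counts were scaled with TMM factors (edgeR 4.0.16 in R 4.3.3), which were 1.09 for control and 0.915 for DSS. Log2 ratios carry exact Clopper-Pearson 95% intervals, ratios between genes carry exact conditional intervals, and levels carry exact Poisson intervals. All cover counting error only. Conditions were not tested against each other, since neither was replicated, and p-values are absent. Genes that reached 10 counts in either library were compared. Lengths came from coding transcripts of GENCODE vM21 by symbol. The scaling was also done with total counts, with 7 epithelial genes as library size, with upper quartile factors and with size factors of DESeq2 1.42.0. Further alternatives were a prior count of 2, thinning and other filters. Python 3.11.15, numpy 2.4.6, scipy 1.17.1, pandas 2.3.3 and matplotlib 3.10.9 were used, and the computation was tested on simulated data.

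The markers and all gene lists were chosen with earlier results of these data known. All markers were named, with lists of up to 5 genes in full, except for a few genes that are not reported here. From longer lists the 3 lowest and the 3 highest ratios were eligible where a gene reached 50 counts in either library, and not all are reported. Further family relatives, partner genes, epithelial genes and alpha-defensins, and the markers whose promoters are printed, were chosen after their values were seen. The nearest genes were the 3 with the smallest distance.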

Additional observations from a re-analysis of the deposited data

How the results depend on the processing

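All 10 markers stayed below 0 with DESeq2 size factors, total counts, upper quartile factors, the epithelial genes as library size, a prior count of 2 and thinning of the deeper library. The counting interval of Bmi1 held 0 with upper quartile factors. The number of markers at -2 or less was 6 or 7 in these settings. The other count filters removed no marker, so they could not change that number. A scaling factor moves every gene alike, by -0.26 on the log2 scale with total counts and by -0.56 with the epithelial genes, and the median of all genes moved with it to -0.31 and -0.61. The median of the markers became -3.27 with total counts and -3.57 with the epithelial genes. For the other crypt base genes the median was -2.23 with total counts, -1.88 with upper quartile factors and -2.53 with the epithelial genes, under which 14 genes in place of 9 were at -2 or less, as were 2136 of all genes in place of 1127. Of 60 recomputed marker ratios, 41 stayed within the counting interval and 19 moved out of it. Those that moved did so with total counts, upper quartile factors or the epithelial genes as library size. DESeq2 size factors, the prior count and thinning shifted Lgr4 by 0.006 or less, so they put well counted genes to little test. The difference between Lgr5 and Lgr4 kept its value of -3.39 under every scaling factor, as it must, because a library factor cancels in it. The median level of the markers per length in the control library was 28.7 with the longest and 50.7 with the median transcript length, and this is set by the shorter models. No library could be left out, and no paired analysis was possible because each condition has 1 sample. Counting error limits Olfm4, Ascl2 and Mex3a most, which had 13, 23 and 48 DSS counts.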
